A study of Auxenochlorella pyrenoidosa with 12 samples.

Results

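In the green alga Auxenochlorella pyrenoidosa, 26 of 16413 assembled transcript features held a nearly level abundance at 1.5, 1 and 0.5 g/L NaNO3 and stood at least 4 times higher at 0 g/L. They were chosen on their measured group means in CPM, the estimated count scaled to the library total. The means of the groups N1.5, N1 and N0.5 each had to be at least 1 CPM, with the largest at most 1.4 times the smallest. The N0 mean had to be at least 4 times each of them and under 90% of the sum of the 4 group means. All 4 group means took part in this choice, so the height of N0 and the closeness of the other groups are a description of the 26 features and not a finding about them.

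The cultures carry the strain label SHOU-1002, and each group name holds its NaNO3 level in g/L. N1.5 served as the control with 1.5 g/L, N1 received 1 g/L, N0.5 received 0.5 g/L, and in N0 the level was 0 g/L. Each group has 3 libraries, which the design text calls biological repeats. RNA sequencing libraries were made from poly(A)-selected RNA. The sources used here do not give the rest of the medium, the harvest time or any batch, so it is not known whether N0 cultures had another nitrogen source or stood at another growth stage. Library totals lay between 22027761 and 24383226 estimated counts, and 3 counts corresponded to 0.123 to 0.136 CPM.

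As background, green algae import nitrate with membrane transporters and reduce it to nitrite with nitrate reductase and to ammonium with nitrite reductase. Glutamine synthetase and glutamate synthase then build the ammonium into amino acids. When nitrogen runs out, green algae are known to stop dividing, to break down chlorophyll and other nitrogen-rich material, and to store carbon as starch and triacylglycerol. Feature names come without gene names, functions or sequences in the files, so none of the 26 can be assigned to these steps, and they are described by level, pattern and length. Features are referred to by their rank in mean N0 CPM, from 1 to 26, and 2 are named by identifier.

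The members covered a wide range of abundance. Their N0 means ran from 7.45 to 2040 CPM with a median of 85.3, where the median of all features in N0 was 16.1 CPM. In N0, 10 members stood at 100 CPM or more, 14 between 10 and 100 CPM and 2 below 10 CPM. In the control group their means ran from 1.01 to 263 CPM with a median of 13.7, and the medians in N1 and N0.5 were 14.0 and 14.5 CPM. The share of all counts that the 26 took together was 0.0578% ± 0.0080 (SD, n = 3) for N1.5, 0.0596% ± 0.0042 for N1, 0.0519% ± 0.0021 for N0.5 and 0.403% ± 0.025 for N0. Rank 1 alone held 0.204% in N0, and the other 25 held 0.199% ± 0.0051. These are shares of a library, so more transcript per cell, more cells carrying it and less of the other transcripts cannot be told apart.

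**Figure D1:**
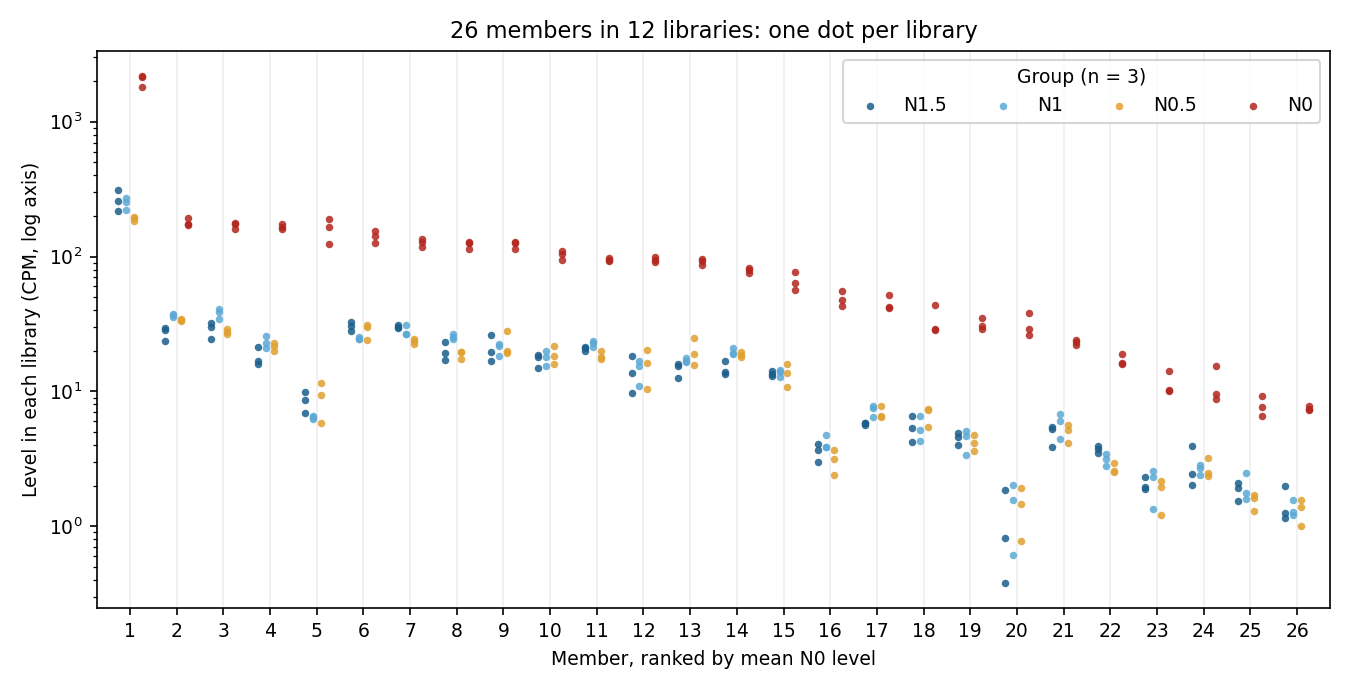
Level of each of the 26 members (horizontal axis, ranked by mean N0 level) in each of the 12 libraries (vertical axis, CPM on a log axis), with 1 dot per library and colours for the 4 groups. The 3 N0 dots lie above all 9 other dots for every member, which the choice on group means made likely. The members' N0 means run from 2040 down to 7.45 CPM.

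The most abundant member was TRINITY_DN4537_c0_g1_i5_3. Its level in N1.5 was 259.8, 217 and 312 CPM in replicates 1, 2 and 3. In N1 it was 272, 222 and 252 CPM, and in N0.5 it was 194, 197 and 183 CPM. In N0 it was 2132, 1812 and 2177 CPM, so the lowest N0 library was 5.80 times the highest other library. The N0.5 libraries lay below every N1.5 and N1 library. By mean CPM it ranked 488 among all features in the control and 51 in N0. Scaled to length, its mean FPKM was 198 in N1.5 and 1532 in N0, and its FPKM rank went from 402 to 69. Its log2 fold change in N0 against N1.5 was 3.13 with a standard error of 0.15.

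The member with the largest ratio was TRINITY_DN5697_c0_g1_i1_1, of rank 20, whose N0 mean was 22.3 times the largest other mean. Its levels were 1.84, 0.820 and 0.383 CPM in N1.5, 2.02, 0.608 and 1.56 CPM in N1, and 0.782, 1.46 and 1.91 CPM in N0.5. In N0 it stood at 29.0, 38.1 and 26.2 CPM. The 3 groups with nitrate overlapped, and their means were close although single libraries of a group differed several-fold, with a lowest estimated count of 8.43. Its log2 fold change in N0 against N1.5 was 5.10 with a standard error of 0.42, and it was 5.84 without N1.5 replicate 1, the library with the highest control level, and 4.73 without N1.5 replicate 3, that with the lowest. This feature met the rule in 10 of the 16 settings that left out libraries.

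The feature of rank 5 had the second largest ratio, 17.9. It stood at 8.61, 6.88 and 9.86 CPM in N1.5, at 6.52, 6.41 and 6.24 CPM in N1, and at 11.6, 9.33 and 5.81 CPM in N0.5. In N0 it stood at 167, 123 and 189.8 CPM, so replicate 2 was well below the other two. The feature of rank 16, with a ratio of 11.7, stood at 4.05, 3.70 and 3.00 CPM in N1.5, at 3.89, 4.77 and 3.86 CPM in N1, and at 3.68, 3.16 and 2.4 CPM in N0.5. Its N0 levels were 43.2, 55.6 and 47.7 CPM, and here replicate 2 was the highest. These 2 features and that of rank 20 were the 3 members with a ratio of 8 or more, and their ratios of largest to smallest mean among the other groups were 1.39, 1.35 and 1.38, close to the limit.

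The other upper ranks had moderate levels in the groups with nitrate and well over 100 CPM in N0. Rank 2 stood at 28.4, 23.7 and 29.5 CPM in N1.5, at 35.5, 37.5 and 36.7 CPM in N1, at 33.4, 33.9 and 34.1 CPM in N0.5 and at 172, 173 and 193 CPM in N0. Its N1 and N0.5 libraries all lay above its N1.5 libraries. Rank 3 stood at 29.8, 24.4 and 31.9 CPM in N1.5, at 38.8, 34.6 and 40.9 CPM in N1, at 27.6, 28.9 and 26.7 CPM in N0.5 and at 173, 159 and 178 CPM in N0. Its N1 libraries lay above those of N1.5 and N0.5, which overlapped. Rank 4 had the ratio 7.21, with 16.7, 15.9 and 21.5 CPM in N1.5, 25.7, 21.0 and 22.7 CPM in N1, 21.8, 19.8 and 23.0 CPM in N0.5, and 166, 160.0 and 175 CPM in N0. Over all 26, the ratio of the N0 mean to the largest other mean had a median of 4.96: 13 members were under 5, 10 between 5 and 8, and 3 above.

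**Figure D2:**
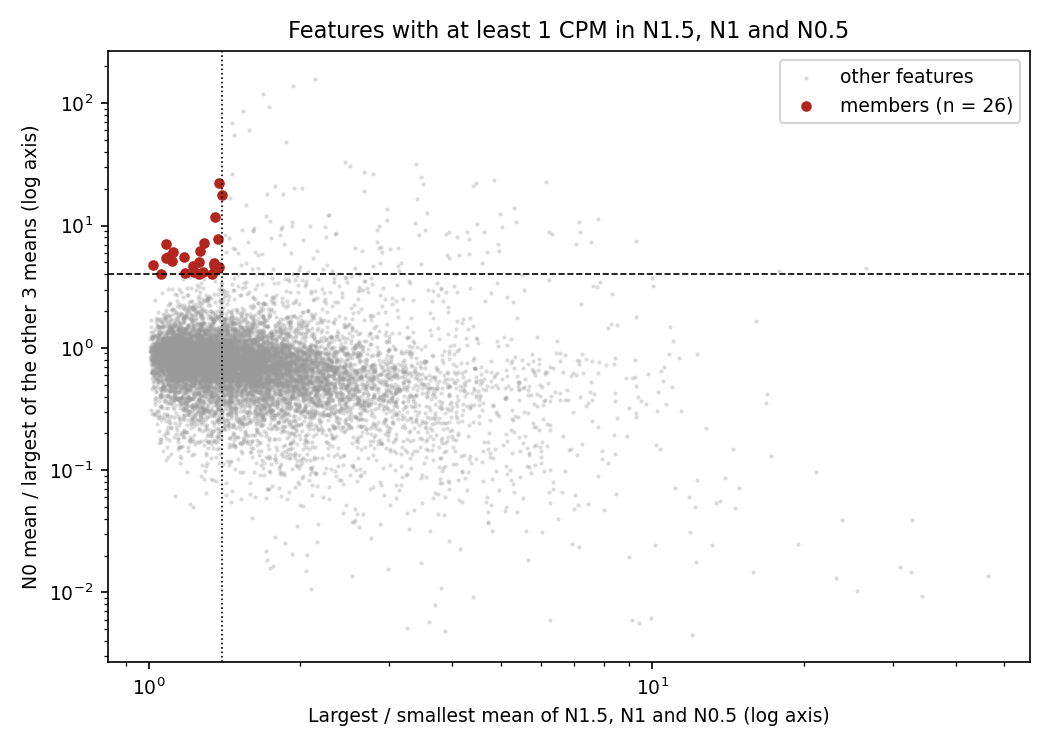
Each dot is 1 of the 12223 features with at least 1 CPM in N1.5, N1 and N0.5; the horizontal axis is the largest over the smallest of these 3 means and the vertical axis the N0 mean over the largest of them, both on log axes, with the limits of 1.4 (dotted) and 4 (dashed). The 26 members (red) fill the upper left field, 13 of them with a ratio under 5, and the 3 with a ratio of 8 or more lie near the dotted line.

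Several features lay close to the limits. The members nearest the 4-fold limit had ratios of 4.02, 4.03 and 4.04, and the nearest steady features outside it had 3.99, 3.93 and 3.86. At the limit of 1.4 the nearest members were at 1.39, 1.38 and 1.38, and the nearest features outside at 1.41, 1.43 and 1.44. One of those outside had a N0 mean of 647 CPM and a control mean of 56.5 CPM. At the limit of 1 CPM, the nearest member was at 1.01 CPM and the nearest feature outside at 0.514 CPM. The ceiling of 90% removed 0 of the steady features, and the highest member stood at 89.1%. Steady or not, 158 features with at least 1 CPM in the other groups were at least 4 times higher in N0. Of these, 135 lay under the ceiling.

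How many features that were 4 times higher in N0 also held a steady course over the other groups was counted beside features at large. Of the 12223 features with at least 1 CPM in the 3 groups, 5553 or 45.4% met the limit of 1.4, whereas of the 135 that were also at least 4 times higher in N0 and under 90% of the sum, 26 or 19.3% met it. Features share libraries, so these shares are a description and their difference was not tested. The other 109 had a median ratio of largest to smallest mean of 2.36. In 59 of these 109 the lowest of the 3 groups was N1.5, in 35 it was N0.5 and in 15 it was N1, while N1 was the highest in 61. Among the 26 members the lowest was N0.5 in 12, N1.5 in 9 and N1 in 5, and N1 was the highest in 13. The 109 had a control median of 4.93 CPM and a N0 median of 71.7 CPM, against 13.7 and 85.3 CPM for the members. For the 12223 features these were 35.3 and 29.4 CPM. The median SD over mean in N1.5 was 24.5% for the 109, 14.2% for the members and 6.38% for the 12223. The sets thus differ in level and spread, and the part of this in the steady shares was not tested.

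The same shape was counted with each other group standing apart, and in reverse. With N0.5 in the place of N0, 13 features were at least 4 times higher than 3 steady groups, and with N1 or N1.5 in that place there were 0. In the reverse shape, with 3 steady groups of at least 1 CPM and the odd group at least 4 times lower than each, there were 94 features for N0, 18 for N0.5, 0 for N1 and 1 for N1.5. The 90% ceiling changed none of the 4 counts of higher features. For N0 the reverse shape thus held 94 features beside the 26 members. These counts are not alike. In the reverse shape the minimum of 1 CPM falls on the higher groups, so N0 may be at 0. For the members it falls on the lower groups, so features nearly absent there are left out. The difference was not tested.

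All 26 members passed the test against each of the other groups, which their choice made likely. In the quasi-likelihood test of edgeR, with p-values adjusted by Benjamini-Hochberg over 15429 tested features, 26 of 26 rose in N0 against N1.5, where 26.6% of all tested features rose and 5.07% rose by 4-fold or more. Against N1 all 26 rose, beside 25.6% of all tested features, and against N0.5 all 26 rose, beside 34.2%. The median log2 fold changes of the members were 2.75, 2.62 and 2.57 in N0 against N1.5, N1 and N0.5, beside medians over all tested features of -0.01, -0.01 and -0.02. Against N1.5 the members ran from 2.18 to 5.10 on the log2 scale, with standard errors from 0.075 to 0.42 and a largest edgeR adjusted p of 1.30e-05. These comparisons share the N0 libraries and were used in the choice, so nothing is read from the counts. Every N0 library stood above every other library for all 26, at least 3 times above for 24 and at least 4 times above for 13. The choice on group means made this likely too. The share of all features with such a gap was not counted, so nothing is read from it.

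Within the limit of 1.4, the 3 groups with nitrate were not at one level for every member. Of the 26, 11 passed the test in at least 1 of the 3 comparisons among N1.5, N1 and N0.5, and 15 passed in none, where 69.7% of all tested features passed in at least 1. The limit of 1.4 used these comparisons too, so the counts and the sizes of these changes are a description. In N1 against N1.5, 3 members rose and 0 fell by edgeR, where 3.97% of all tested features rose and 3.6% fell. They were the features of rank 2, 3 and 14. Their log2 fold changes were 0.45, 0.43 and 0.43. Between N0.5 and the control, 5 members were higher and 3 lower in N0.5 past the test, where 30.6% and 31.3% of all tested features were. The 5 that rose had ranks 2, 4, 13, 14 and 17, and the 3 that fell had ranks 1, 7 and 22. Between N0.5 and N1, 0 members rose and 3 fell, where 29.1% of all tested features rose and 31.3% fell. The 3 had ranks 3, 8 and 11. These counts are small and moved with single libraries: with 1 library left out they ranged from 1 to 5 in N1 against N1.5, where the lowest came without N1.5 replicate 1 or 2 or N1 replicate 1 or 3 and the highest without N1.5 replicate 3. They ranged from 4 to 8 in N0.5 against N1.5, with 4 without N0.5 replicate 3 and 5 without N1.5 replicate 1 or N0.5 replicate 1, and from 2 to 5 in N0.5 against N1, with 5 without N1 replicate 2 or N0 replicate 2. With library totals in place of TMM scaling, 3 members were higher and 4 lower in N0.5 than in N1.5.

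The sizes of these calls lay between 0.23 and 0.52 on the log2 scale, which the limit of 1.4 on the group means bounds, but for the TMM scaling. The largest was that of the feature of rank 13 in N0.5 against N1.5, at 0.52 (standard error 0.14, edgeR adjusted p = 0.00551). Its levels were 15.4, 12.7 and 16.0 CPM in N1.5, 16.8, 16.6 and 17.6 CPM in N1, 15.8, 24.9 and 18.8 CPM in N0.5, and 92.5, 95.5 and 86.8 CPM in N0. The N0.5 value was carried by replicate 2, and N0.5 replicate 1 lay within the range of N1.5. The feature of rank 14 was higher in both N1 and N0.5 than in the control: it stood at 14.0, 13.4 and 16.8 CPM in N1.5, at 20.8, 18.9 and 19.1 CPM in N1, at 18.0, 18.6 and 19.6 CPM in N0.5 and at 79.8, 75.2 and 82.3 CPM in N0. The 15 members without a call had a median standard error of 0.21 in these comparisons, against 0.12 for the 11 with one, so a missing call does not show that their levels were equal.

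To read the pattern in libraries that took no part in choosing the features, the rule was applied to 2 replicate numbers of every group and the values were taken from the libraries with the third number. Leaving out replicate 1, the rule chose 28 features, of which 20 are among the 26. In the left-out libraries N0 was above the other 3 for all 28 and at least 4 times above for 23, with a median ratio of 4.67. Leaving out replicate 2, it chose 20 features, and the left-out N0 library was above the others for all 20 and at least 4 times above for 16, with a median of 4.86. Leaving out replicate 3, it chose 27, with N0 above for all 27, at least 4 times above for 16 and a median of 4.35. The lowest ratio in left-out libraries was 2.11. As to steadiness, the largest of the 3 other left-out libraries was at most 1.4 times the smallest for 11 of 28, 10 of 20 and 11 of 27 features, and at most 2 times for 26, 18 and 23. The shares of all features in the left-out libraries were not counted, neither for N0 above the others nor for steadiness. On the group means of all 12 libraries, an unlike measure, 45.4% of the 12223 features with at least 1 CPM met the limit of 1.4. Of the same features, 158 were at least 4 times higher in N0 than in each other group. The steadiness in left-out libraries is therefore not read as a trait of the chosen features. All left-out values rest on 1 library per group, so no test was made.

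**Figure D3:**
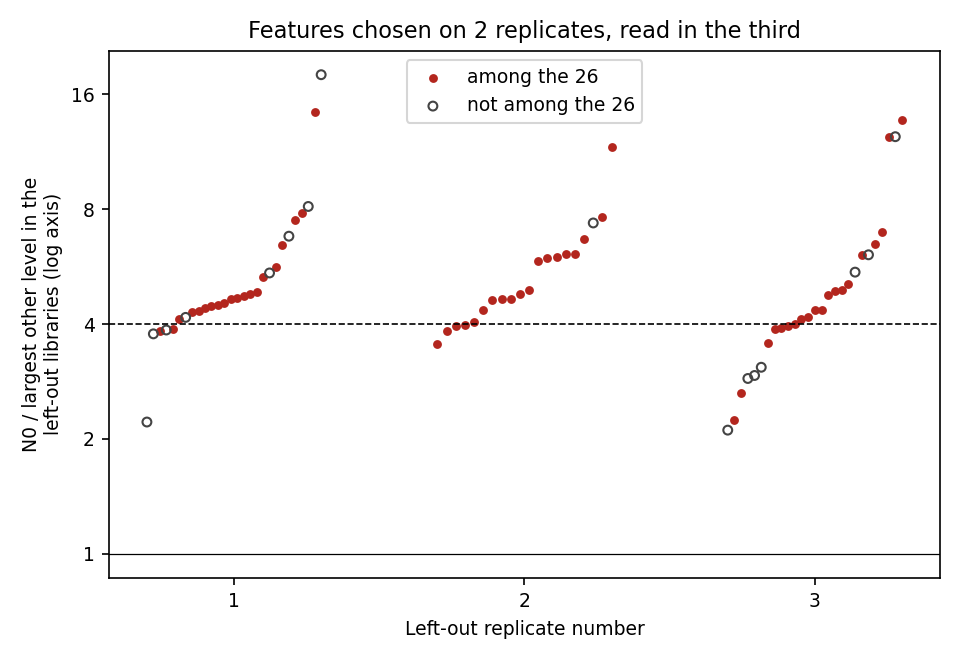
Ratio of N0 to the largest other level (vertical axis, log axis) in the left-out libraries, for features chosen on the remaining 2 replicates, by left-out replicate number; red dots are features among the 26, open circles are not, and the dashed line marks 4. All dots lie above 1, the lowest at 2.11, and the medians are 4.67, 4.86 and 4.35. The share of all features above 1 in these libraries was not counted.

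The rule read group means, and the spread between libraries of a group was free to vary. It was read in each group over the features with a mean between 10 and 100 CPM in that same group. In N1.5 the median SD over mean was 12.2% for the 13 members in this range, where all 7842 features in it had 5.73%. In N1 the values were 5.81% for members and 5.88% for all features, and in N0.5 they were 7.47% and 5.82%, again with 13 members each. In N0, where 14 members with mostly lower levels in the other groups lie in this range, they were 11.6% and 7.20%. Members between 1 and 10 CPM had medians of 16.3 to 17.6% in the 3 groups with nitrate, where all features in that range had 18.2 to 19.4%. At 10 to 100 CPM the members' median was above that of all features in N1.5, N0.5 and N0, and no test of this was made. In N1.5 the 13 members lay between 13.5 and 30.3 CPM, in the lower part of the range. Levels within the range were not matched, so the higher spread is not read as a trait of the members.

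In the control group the spread had one direction for most members. N1.5 replicate 3 was the highest control library for 21 of the 26, or 80.8%, whereas it was the highest for 30.6% of all features with at least 1 CPM in every group. N1.5 replicate 2 was the highest for 0 of the 26 and the lowest for 16. The median member stood in replicate 3 at 1.13 times, and in replicate 2 at 0.849 times, the mean of the other 2 control libraries. In N1, replicate 2 was the lowest library for 17 of the 26, or 65.4%, against 32.8% of all features. In N0.5, replicate 2 was the highest library for 13 members, or 50.0%, against 25.4% of all features. There replicate 1 was the lowest for 12 members, or 46.2% against 41.6%, and replicate 3 for 11, or 42.3% against 31.4%. A small amount of transcripts otherwise nearly confined to N0 was present in every library with nitrate. It was read in 104 features with 90% or more of their summed means in N0 and at least 4 CPM there. Their median level was 1.66% of their N0 mean in N1.5 replicate 3, 0.860% in replicate 1 and 0.648% in replicate 2. In N1 these were 1.74, 0.921 and 1.27% in replicates 1, 2 and 3, and in N0.5 1.27, 1.47 and 0.522%. The part of this trace in the members' spread was not tested.

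The members' levels as a share of N0 are bounded by the rule, since a member must hold under 90% of its summed means in N0, so they are no measure against this trace. The lowest share among the members was 5.38, 2.64 and 1.23% of the N0 mean in N1.5 replicates 1, 2 and 3. In N1 it was 4.08, 1.96 and 3.90%, and in N0.5 it was 2.52, 4.70 and 3.63%. Only in N1.5 replicate 3 was it below the median of those 104 features, which was 1.66% there. The part of the trace in these levels was not tested. The 4 libraries N1.5 replicate 3, N1 replicate 1 and N0.5 replicates 1 and 2 were also left out together, a set taken from earlier results of these data. This set does not separate libraries with the trace from libraries without it. Every library with nitrate held some of it, and N1 replicate 3, which was kept, stood at 1.27% like N0.5 replicate 1, which was left out. Without the 4 libraries the rule chose 25 features, 16 of them among the 26. The median log2 fold change of the 26 in N0 against N1.5 was then 2.84. Leaving the 4 out keeps 1 library in N0.5, which is assumed to vary like the other groups.

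**Figure D4:**
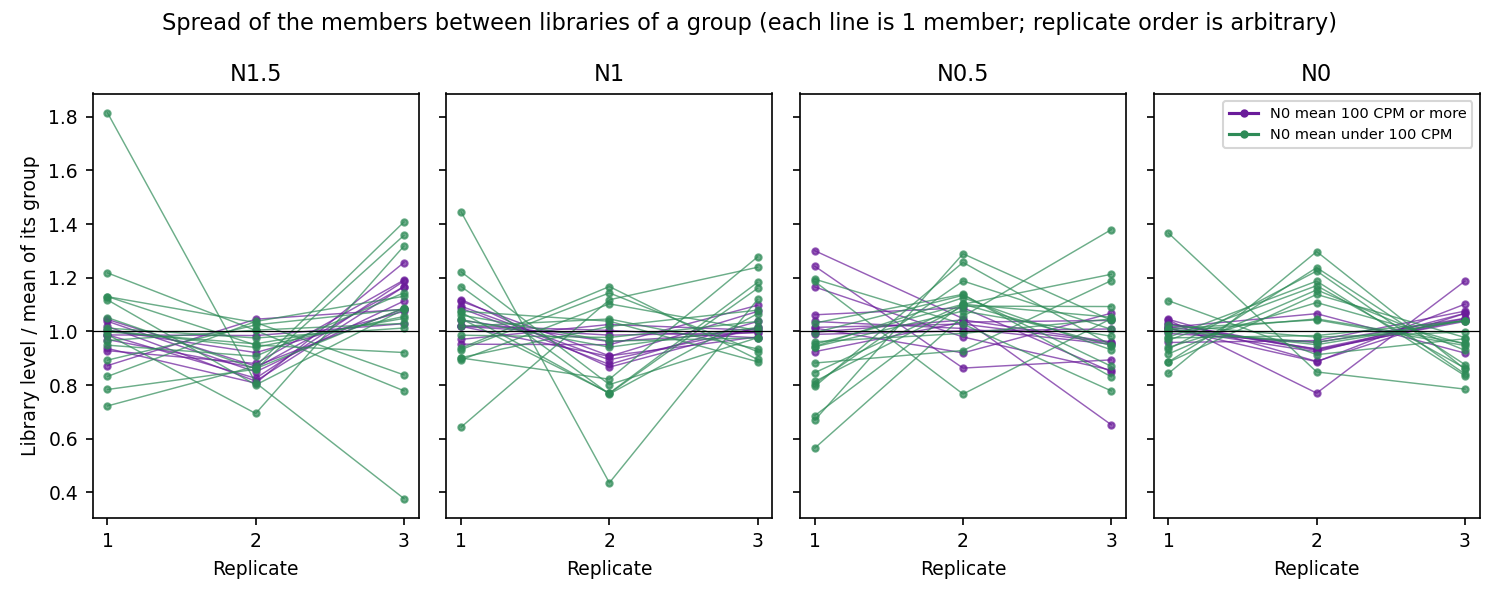
Level of each member in each library over the mean of its group (vertical axis), by replicate (horizontal axis) in the 4 groups; each line is 1 member, purple for the 10 members at 100 CPM or more in N0 and green for the 16 below. In N1.5 replicate 3 is the highest for 21 of 26 members. In N0 most purple lines dip at replicate 2 while most green lines peak there. Of all features between 10 and 100 CPM in N0, 60.7% also had their highest N0 library in replicate 2.

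Among the N0 libraries, replicate 2 was low for most of the abundant members and high for most of the others. The latter share lay near that of all features between 10 and 100 CPM. It was the lowest N0 library for 12 members and the highest for 11, with 3 between. The 12 had a median N0 level of 125 CPM and stood in replicate 2 at a median of 0.90 times the mean of replicates 1 and 3. The 11 had a median of 45.1 CPM and stood there at 1.25 times. Of the 10 members at 100 CPM or more in N0, replicate 2 was the lowest library for 8, where the share among all 1910 features at that level was 40.0%. Of the 14 members between 10 and 100 CPM, it was the highest for 9, or 64.3%, where the share of all 7348 features at that level was 60.7%. Of the 12 members with their lowest N0 library in replicate 2, replicate 2 was also the lowest control library for 10 and the lowest N1 library for 11, but in N0.5 it was the lowest for 2 and the highest for 6. Of the 11 with their highest N0 library in replicate 2, it was the lowest control library for 5, the lowest N1 library for 6 and the lowest N0.5 library for 0. Among all features with at least 1 CPM in every group, replicate 2 was the lowest control library for 29.7%, the lowest N1 library for 32.8% and the highest N0.5 library for 25.4%. No test was made of these patterns, and the replicate number is not known to stand for a shared culture or day.

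Length and name were not used in the choice. The length implied by the deposited counts and FPKM values had a median of 1628 bases in the members and ran from 644 to 3575 bases, beside 1696 bases for all features at 7 CPM or more in N0. The 26 members have 26 different gene names in the form that the assembler Trinity gives. Each name ends in a number from 1 to 4, whose meaning the sources used here do not give, and 10 of the 26 end in 2, or 38.5%, against 23.9% of all features. Of the 26 gene names, 16 also occur with another final number, in 21 further features that did not meet the rule. Of these, 19 were tested: 4 rose in N0 against N1.5, 5 fell and 10 did not pass the edgeR test, shares of 21.1% and 26.3% beside 26.6% and 31.2% of all tested features. Of the 4 that rose, 1 rose by 2-fold or more. All 16413 features differ in the pair of gene name and final number, so 2 features that share a gene name but not the final number are not shown to come from the same gene.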

How the data were processed

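Estimated counts and FPKM values of 16413 features in 12 libraries were used as deposited by the authors. The tools named per the submitters' processing notes are Trimmomatic 0.40, Bowtie2 2.4.5 and DESeq, without their roles; how contigs were assembled and annotated, and with what reads were counted, is not given in the sources used here. A single feature is uncertain where near-identical copies shared its reads. Members were chosen on CPM of library totals, and levels are given on that scale. FPKM values deposited by the authors gave levels per length. Dividing count by FPKM and by the library total gave 1 length per feature, with library medians between 0.995 and 1.01 of it.

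The rounded counts were fitted in edgeR 4.0.16 (R 4.3.3), whose quasi-likelihood F test was used with TMM scaling (factors 0.908 to 1.07) and the filterByExpr filter, which kept 15429 features, all 26 members among them. All 12 libraries entered 1 fit with 1 coefficient per group. There were 6 comparisons, each adjusted over all tested features by Benjamini-Hochberg, with calls at an adjusted p under 0.05. Standard errors are the log2 fold change divided by the square root of F. Alternatives used RLE, library totals, no filter, DESeq2 1.42.0, limma 3.58.1 on log2(FPKM + 0.1) and log2(FPKM + 1), a replicate block and libraries left out. Values are mean ± SD over 3 libraries; where nothing says that libraries came from separate cultures, p-values measure the spread between these libraries. Floors of 3 counts cover counting error only.

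The identifiers printed are the member with the highest N0 mean and that with the largest ratio of N0 to the largest other mean; others are described by rank, namely the 5 highest by each measure and those nearest a limit, and the features of rank 13 and 14 were added after their values were seen. The members and lists were chosen with earlier results of these data known.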

Additional observations from a re-analysis of the deposited data

How the results depend on the processing

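The number of members depended on the limits and less on scaling. It was 31 with TMM-scaled CPM, 32 with RLE and 22 with FPKM values (23, 23 and 21 of them among the 26). It was 9 with a steadiness limit of 1.2, 65 with a limit of 2, 49 with a fold of at least 3, 3 with a fold of at least 8 and 17 with a minimum of 5 CPM. With libraries left out it ranged from 20 to 28, and 11 of the 26 were chosen in every one of these 16 settings. In all alternatives that kept more than 1 library in each group, 26 of 26 members were called higher in N0 than in each other group. Their choice on these same libraries made this likely, so nothing is read from it. In the main setting 26.6, 25.6 and 34.2% of all tested features were higher in N0 than in N1.5, N1 and N0.5. The 3 calls in N1 against N1.5 became 5 with the replicate block and 1 to 5 with 1 library left out. They fell to 1 without N1.5 replicate 1, N1.5 replicate 2, N1 replicate 1 or N1 replicate 3, and became 5 without N1.5 replicate 3. The 8 calls in N0.5 against N1.5 ranged from 4 to 8 with 1 library left out. They were 5 without N1.5 replicate 1 or N0.5 replicate 1 and 4 without N0.5 replicate 3. The 3 calls in N0.5 against N1 became 5 with library totals and with limma on log2(FPKM + 0.1) or log2(FPKM + 1). With 1 library left out they ranged from 2 to 5 (5 without N1 replicate 2 or N0 replicate 2). The cause of these changes was not tested.

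The median log2 fold change of the members in N0 against N1.5 was 2.58 with library totals and 2.57 with limma on log2(FPKM + 0.1), where library totals moved the median of all tested features to -0.19. With 1 library left out it ranged from 2.66 to 2.84. Without N1.5 replicate 3, N1 replicate 1 and N0.5 replicates 1 and 2 together it was 2.84, an alternative to the tests added after the data were seen. Same-numbered libraries correlated in their deviations from the group means between -0.090 and 0.26, over 0.1 in 3 of 18 pairs, and 6 of 18 correlated best with their own number, so the numbers are not shown to pair the samples; the replicate block moved no other count of member calls by over 1.5 times. Depth limits the low members most: the lowest count of a member in a library was 8.43.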
